A study of Mus musculus with 17 samples.

Results

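Renal handling of phosphate and urate was followed through 10 genes in kidney RNA of db/m and db/db mice: the sodium-phosphate cotransporters Slc34a1, Slc34a3 and Slc20a2, the SLC17 transporters Slc17a1 and Slc17a3, the phosphate exporter Xpr1, the scaffold proteins Pdzk1 and Slc9a3r1, and the hormone receptor components Kl and Pth1r. The genes were chosen by name for their roles, but with earlier results of these data known, as were the pathway and marker lists below. Each symbol matched 1 mouse Ensembl identifier. The set is thus 10 of the 55487 gene rows of the deposited count table and 10 of the 12131 genes with enough counts to test. Kidneys came from male mice aged 16 weeks on the BKS background, 8 and 9 animals in the submitters' design, with 1 library each. By the submitters' design the 8 db/m animals carry 1 copy of the Leprdb allele of the leptin receptor gene, and the 9 db/db animals are homozygous for it. Without the signalling form of the leptin receptor, db/db mice develop obesity and diabetes, whereas db/m mice stay lean. The mutation is inherited and present in every cell, and nothing was induced or restored in the kidney. Groups follow the sample titles and library names, while the genotype field gives the reverse for all 17 samples, and if that field were right every direction below would be the opposite.

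Filtered phosphate is recovered by the proximal tubule. Slc34a1 (NaPi-IIa) and Slc34a3 (NaPi-IIc) carry it with sodium across the brush border, Slc20a2 (PiT-2) is a related carrier of another family, and Xpr1 lets phosphate out of cells. Pdzk1 and Slc9a3r1 (NHERF1) hold the brush border carriers in place through PDZ domains. Parathyroid hormone, through its receptor Pth1r, and the bone hormone FGF23, through FGF receptors that need the coreceptor klotho (Kl), withdraw the SLC34 carriers from the membrane. Slc17a1 (NPT1) and Slc17a3 (NPT4) were first cloned as phosphate transporters and are known as exporters of urate and other organic anions.

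Transcripts were read at their 3′ ends, so a long transcript gives no more reads than a short one of equal abundance. Levels are given as CPM, counts scaled to a common library depth with edgeR's TMM method, and are compared between groups for 1 gene at a time, not between genes. Libraries held 3256427 to 7627747 gene counts, of which 22.0% to 30.6% came from mitochondrially encoded genes. The proximal tubule list was present in full, with 0 of 22 markers without counts and a summed level of 10046 to 12899 CPM in db/m and 9993 to 17227 CPM in db/db. Along the first principal component of all tested genes, which held 32.8% of the variance, db/db replicate 8 lay at 79.2 and db/m replicate 8 at -44.3. The latter was not set apart there, with db/m replicate 4 at -41.93 and db/db replicate 1 at -40.65. Values without the replicate 8 libraries are given for some genes and ratios, not for every result that moved. Library numbers run from 1 to 8 in db/m and from 9 to 76 in db/db, so anything that follows library number cannot be told apart from the group. In db/db replicate 8 the mitochondrial share was the lowest of the 17. In db/m replicate 8 the summed adipocyte markers (962 CPM) and lymphocyte markers (307 CPM) were the highest.

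Of the 10 genes, 1 was lower in db/db and 0 were higher at an adjusted p under 0.05 (edgeR's quasi-likelihood test, Benjamini-Hochberg adjustment over all tested genes). Among all tested genes 3.49% were called lower and 3.91% higher, 7.39% in either direction, so 1 call in 10 genes is close to what the whole table gives. Unadjusted p was under 0.05 for 1 gene in the upward direction, Slc34a3, and for 1 downward. DESeq2 and limma-voom likewise called 0 members higher and 1 lower. The median log2 fold change of the 10 genes, db/db minus db/m, was -0.14, beside 0.003 for all tested genes. The gene that fell was Slc17a3, and the groups separated fully for it alone among the 10, against 1.78% of tested genes whose groups did not overlap and 1.05% that did so with db/db lower.

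**Figure D1:**
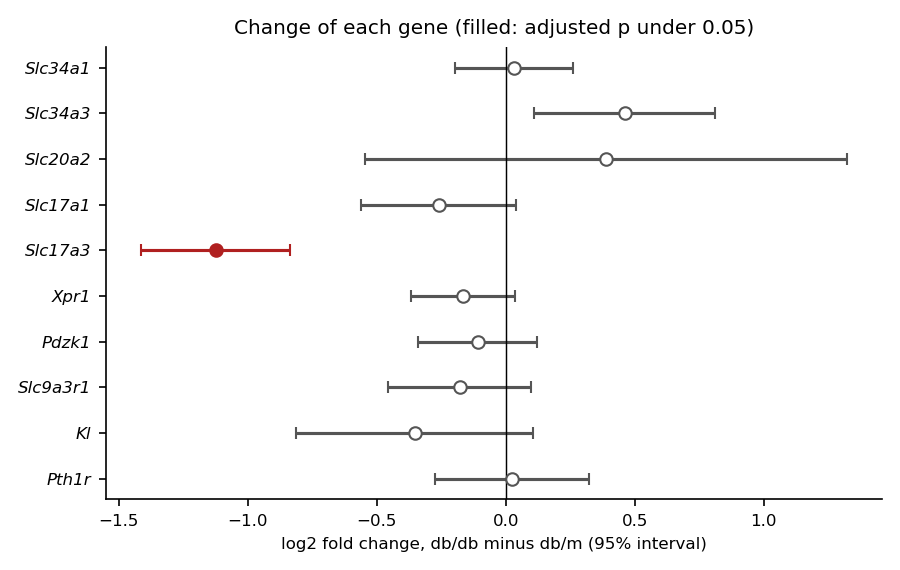
Log2 fold change (db/db minus db/m) of each of the 10 genes on the horizontal axis, with its 95% interval derived from edgeR's F statistic. Filled red marks an adjusted p under 0.05. Slc17a3 stands at -1.12, and the intervals of the other genes except Slc34a3 include 0.

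Slc17a3 encodes NPT4, an organic anion and urate transporter of proximal tubule cells. Its level in db/m ran from 347 through a median of 433 to 588 CPM. In db/db it ran from 136 through a median of 200.004 to 287 CPM. All 9 db/db kidneys lay below the lowest db/m kidney. On the log2 scale it fell by 1.12 (SE 0.14, 95% interval -1.41 to -0.84), to a 2.18-fold lower level, with an edgeR adjusted p of 1.22e-05. An exact permutation test of mean log2 CPM gave p = 4.11e-05 (two-sided), the smallest that 24310 splits of 8 and 9 libraries can give. The call was kept in all 17 fits that left out 1 library, where the change ranged from -1.19 to -1.05. With libraries scaled to the summed proximal tubule markers instead of to all genes, the change was -1.18 (SE 0.13, edgeR adjusted p = 1.51e-06). That sum is an uneven scale. In db/db replicate 1, Pck1 alone gave 6858 of its 17227 CPM, and 3 of its genes were called higher and 2 lower. Without db/m replicate 8 and db/db replicate 8 together, the change of Slc17a3 was -1.15 (SE 0.14). As whole kidney was measured, fewer cells of a type and less RNA per cell cannot be told apart.

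Slc17a1 encodes NPT1 and is the immediate neighbour of Slc17a3 on chromosome 13. It spanned 309 to 486 CPM in db/m, with a median of 394. In db/db the span was 162 to 404 CPM with a median of 362, and 7 of 9 kidneys lay below the db/m median. The groups overlapped, and the difference of -0.26 (SE 0.14, 95% interval -0.56 to 0.04) did not pass edgeR's test (adjusted p = 0.316). The lowest db/db value was that of replicate 8, which stood apart from the other 8, and without it the difference was -0.17 (SE 0.10; edgeR adjusted p = 0.357).

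Because a ratio within 1 library does not depend on how libraries are scaled, the neighbouring genes were also set against each other, a comparison chosen after the fold changes had been seen. There were 0.942 to 1.29 counts of Slc17a3 per count of Slc17a1 in db/m, with a median of 1.12. In db/db the ratio was 0.417 to 0.719 in 8 kidneys and 1.22 in replicate 8, with a median of 0.619. Thus 8 of 9 db/db kidneys lay below every db/m kidney, and replicate 8 lay inside the db/m range. Mean log2 ratios differed by -0.85 (0.16 ± 0.16 SD in db/m, n = 8, and -0.69 ± 0.45 SD in db/db, n = 9; exact permutation p = 0.000699, two-sided, and 0.00140 adjusted over the 2 ratios examined). Without db/db replicate 8 the difference was -0.97 (exact permutation p = 0.000155). The fall of Slc17a3 thus exceeded the difference of Slc17a1 within the same libraries. Both belong to the SLC17 family, and whether reads of alike sequence were split between them was not tested.

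**Figure D2:**
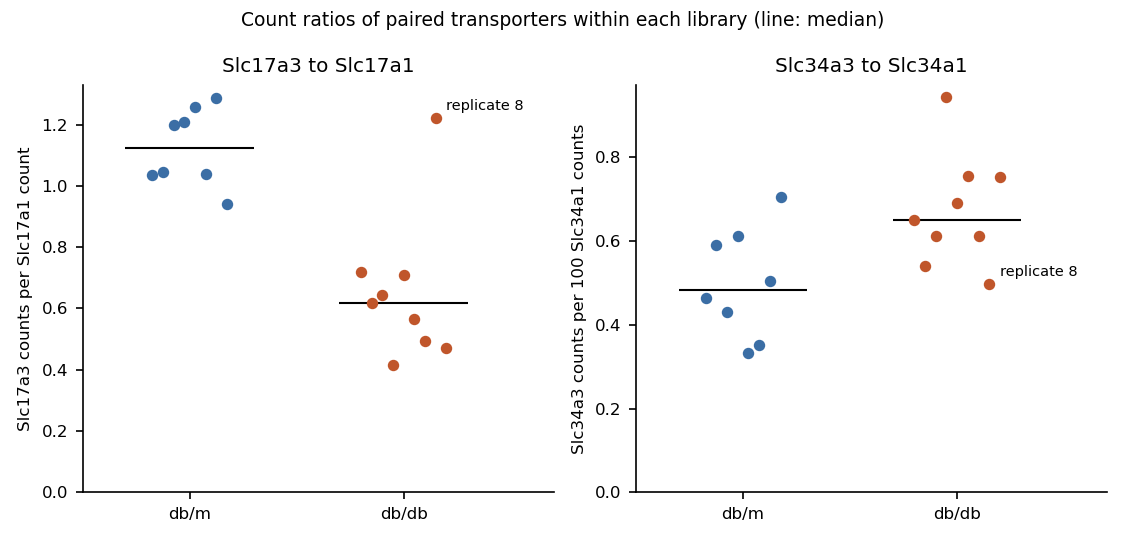
Counts of Slc17a3 per Slc17a1 count (left) and counts of Slc34a3 per 100 Slc34a1 counts (right), 1 point per library, with a line at each group's median. On the left 8 db/db libraries lie below all db/m libraries and replicate 8 lies at 1.22; on the right all 9 db/db libraries lie above the db/m median of 0.483.

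The 250 bases before the RefSeq start sites of these neighbours, and of Slc34a1 for contrast, are shown because Slc17a3 changed while the others did not pass the test. All are on the plus strand of GRCm38.p6, at chr13:23839184-23839433 for Slc17a3, chr13:23868768-23869017 for the first listed start of Slc17a1 and chr13:55399398-55399647 for Slc34a1, and none overlaps an exon of the GENCODE M21 annotation, although the Slc17a1 and Slc34a1 windows lie inside the annotated spans of those genes. Capitals mark matches on either strand to 4 short motifs: GTTAAT for HNF1, CAAAGTCCA for HNF4, TGTTCT for the androgen and glucocorticoid receptors and TTCNNNGAA for STAT factors.
Slc17a3: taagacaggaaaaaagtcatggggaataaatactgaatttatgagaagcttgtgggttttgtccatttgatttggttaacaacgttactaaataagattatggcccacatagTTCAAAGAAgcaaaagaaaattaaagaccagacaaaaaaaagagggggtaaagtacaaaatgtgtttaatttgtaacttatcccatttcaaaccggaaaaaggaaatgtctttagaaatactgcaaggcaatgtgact
Slc17a1: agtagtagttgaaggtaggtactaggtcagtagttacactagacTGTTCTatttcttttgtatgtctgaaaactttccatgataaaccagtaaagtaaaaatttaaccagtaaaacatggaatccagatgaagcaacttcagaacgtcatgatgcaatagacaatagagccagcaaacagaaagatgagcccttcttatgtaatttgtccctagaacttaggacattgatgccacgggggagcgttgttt
Slc34a1: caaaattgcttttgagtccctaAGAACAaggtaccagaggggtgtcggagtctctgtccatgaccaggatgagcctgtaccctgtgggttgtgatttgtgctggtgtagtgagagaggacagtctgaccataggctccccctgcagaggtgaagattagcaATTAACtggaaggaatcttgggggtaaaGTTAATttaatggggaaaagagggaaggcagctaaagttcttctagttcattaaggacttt
The Slc17a3 window held 1 STAT match. The Slc17a1 window held 1 match to the androgen and glucocorticoid receptor motif, and the window before a second RefSeq start of Slc17a1 (chr13:23870023-23870272, not shown, overlapping 1 exon) also held 1 STAT match. The Slc34a1 window held 2 HNF1 matches and 1 match to the receptor motif. The windows of all other members with a RefSeq promoter lacked an HNF1 match, so this motif does not set uncalled members apart from Slc17a3. No HNF4 match was present in any of the 3 windows, and no match overlapped another. Of 32851 RefSeq promoter windows of the same length, 7.02% held the STAT motif, 6.43% the HNF1 motif, 16.1% the receptor motif and 0.384% the HNF4 motif. These are letters in a window, not observed binding.

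Slc17a3 and the summed markers of the last straight segment of the proximal tubule, S3, were both lower in db/db. Of 10 listed S3 markers, 7 were lower and 1 was higher in db/db, where 3.49% of all tested genes were lower and 3.91% higher. That list was chosen with earlier results of these data known, so its counts are not independent of them. Their summed level was 6226 to 8460 CPM in db/m and 2845 to 4125 CPM in db/db. Within db/m both that sum and Slc17a3 were highest in replicate 4. In db/m replicate 6, however, the sum was 8372 CPM while Slc17a3 was at its lowest db/m level, 347 CPM. Within db/db, replicate 1 had the highest Slc17a3 (287 CPM) with an S3 sum of 3156 CPM. Replicate 6 had the highest S3 sum with Slc17a3 at 205 CPM. No marker of the list was without counts. The summed list of 22 general proximal tubule markers had medians of 11075 and 11224 CPM, with 3 members higher and 2 lower. Whether the S3 change has a part in the fall of Slc17a3 was not tested. The tested genes closest to Slc17a3 in their profile over the 17 libraries, out of 10221 candidates, were St8sia1 and Hykk. Closeness was the root mean square difference of log2 CPM after each gene's own mean was subtracted, which was 0.20 for St8sia1 and 0.22 for Hykk on the log2 scale. This measure takes in the difference between groups, so a fall of both genes was part of the choice and is no separate result. St8sia1, a ganglioside sialyltransferase, went from 45.5 ± 7.18 CPM in db/m to 24.1 ± 5.44 CPM in db/db (SD, n = 8 and 9). Hykk, hydroxylysine kinase, went from 223 ± 39.7 to 108 ± 36.4 CPM (SD).

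**Figure D3:**
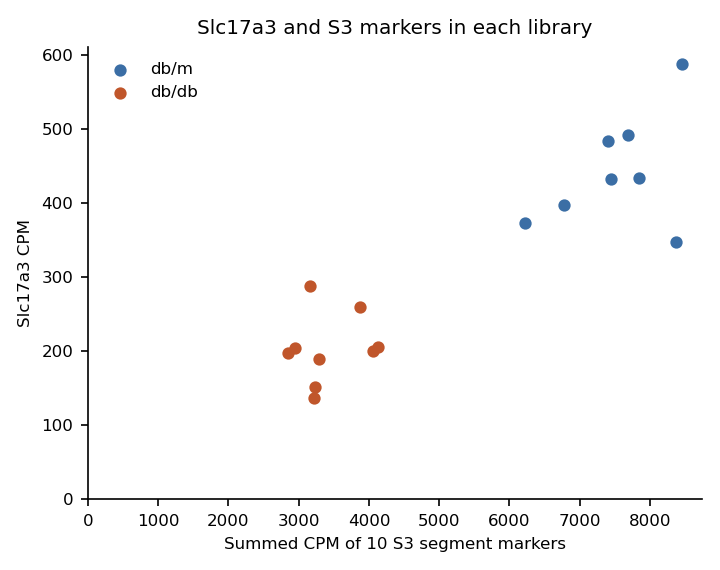
Slc17a3 level in CPM (vertical) against the summed CPM of the 10 S3 markers (horizontal), 1 point per library. The db/m libraries lie at 6226 CPM of S3 markers or above and the db/db libraries at 4125 CPM or below, and the groups separate on both axes.

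Slc34a1, the main sodium-phosphate cotransporter of the brush border, was measured from 9839 to 21914 counts per library. Its level spanned 2668 to 3710 CPM in db/m, with a median of 3211. In db/db it spanned 2715 to 4177 CPM, with a median of 3395. The groups overlapped almost throughout, with 5 of 9 db/db kidneys above the db/m median. The log2 fold change of 0.03 (SE 0.11) did not pass edgeR's test (adjusted p = 0.904), and its 95% interval reached from 0.874-fold to 1.20-fold of the db/m level. The sign turned to -0.05 without both replicate 8 libraries and to -0.02 when libraries were scaled to proximal tubule markers.

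Slc34a3, the second brush border cotransporter, had 48 to 165 counts per library. It was at 10.8 to 21.9 CPM in db/m (median 15.5) and 14.6 to 31.99 CPM in db/db (median 22.3). The groups overlapped, but 8 of 9 db/db kidneys lay above the db/m median and 5 lay above every db/m kidney. The difference of 0.46 (SE 0.17, 95% interval 0.11 to 0.81) had an unadjusted p of 0.0128 by edgeR and did not pass adjustment over all genes (adjusted p = 0.111, and 0.0790 by DESeq2 and 0.0889 by limma-voom). An exact permutation test of mean log2 CPM for this gene alone gave p = 0.0160 (two-sided).

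Set against Slc34a1 in the same library, a comparison also chosen after the values were seen, there were 0.332 to 0.704 counts of Slc34a3 per 100 counts of Slc34a1 in db/m, with a median of 0.483. In db/db there were 0.496 to 0.942, with a median of 0.650. All 9 db/db kidneys lay above the db/m median, and the ranges overlapped. The mean log2 ratio was 0.45 higher in db/db (exact permutation p = 0.0138, two-sided, also after adjustment over the 2 ratios, and 0.53 higher without db/m replicate 8). As Slc34a1 hardly differed (0.03), the ratio mostly restates the Slc34a3 difference of 0.46, which did not pass adjustment over all genes. Adjusting over 2 ratios does not cover the choice of either pair after the values were seen.

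Slc20a2 encodes PiT-2, a sodium-phosphate cotransporter found in many cell types. Few reads were counted for it, 7 to 113 per library. Its level was 2.45 to 11.7 CPM in db/m (median 3.70) and 1.93 to 25.2 CPM in db/db (median 5.27). In each group 1 library lay far above the rest, db/m replicate 8 and db/db replicate 1. The difference of 0.39 (SE 0.45, 95% interval -0.54 to 1.32) did not pass edgeR's test (adjusted p = 0.673), and it was -0.23 (SE 0.32) without db/db replicate 1 and 0.70 (SE 0.45) without db/m replicate 8. With limma-voom it was 0.10, and without both replicate 8 libraries it was 0.77 (SE 0.45). The annotation places Slc20a2 across Smim19 on the other strand and Gm17491 on the same strand. Their levels in db/db replicate 1 were 35.3 and 9.16 CPM, within the range of the other libraries. Ambiguous reads were left out, and whether this lowered the Slc20a2 counts was not tested. The adipocyte sum was 111 CPM in db/db replicate 1, against 962 CPM in db/m replicate 8. Whether other cells have a part in these high values was not tested.

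Xpr1, the phosphate exporter, was at 88.4 to 129.7 CPM in db/m (median 110.0) and 83.0 to 112 CPM in db/db (median 96.9). In db/db 8 of 9 kidneys lay below the db/m median, and 4 lay below every db/m kidney. The difference was small at -0.17 (SE 0.10, 95% interval -0.37 to 0.04) and did not pass edgeR's test (adjusted p = 0.346).

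Pdzk1, which has several PDZ domains and binds Slc34a1 and the urate transporters, spanned 533 to 842 CPM in db/m and 505 to 794 CPM in db/db, with medians of 694 and 620. The ranges coincided almost fully. Its log2 fold change was -0.11 (95% interval -0.34 to 0.12; edgeR adjusted p = 0.626), and it was -0.17 without both replicate 8 libraries, -0.05 without db/m replicate 5 and -0.07 without db/db replicate 2, none of which passed the test. Slc9a3r1, the scaffold NHERF1 that links carriers to ezrin, was at 87.0 to 126 CPM in db/m and 66.3 to 126 CPM in db/db. Here 6 of 9 db/db kidneys lay below every db/m kidney, while replicates 1, 7 and 8 lay at 115 to 126 CPM. The group difference of -0.18 (SE 0.13, 95% interval -0.46 to 0.10) did not pass edgeR's test (adjusted p = 0.482).

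Kl encodes klotho, the membrane protein that makes FGF receptors responsive to FGF23. It was at 90.3 to 166 CPM in db/m (median 111) and 48.9 to 212 CPM in db/db (median 84.9). In db/db 7 of 9 kidneys lay below the db/m median and 5 lay below every db/m kidney, whereas replicate 1 was the highest of all 17. With all libraries the difference was -0.35 (SE 0.22, 95% interval -0.81 to 0.11; edgeR adjusted p = 0.385). Without db/db replicate 1 it was -0.58 (SE 0.16) and passed the test (edgeR adjusted p = 0.0238), so whether klotho is called lower rests on that library. In the same library Cyp24a1 (75.7 CPM), which inactivates vitamin D, and Cyp27b1 (9.38 CPM), which activates it, also had their highest db/db values, and the summed thick limb markers (1023 CPM) were the lowest of the 17. Summed markers of the distal tubule, where klotho is known to be made, were 1091 to 1723 CPM in db/m and 1795 to 3182 CPM in db/db. The part of these in the klotho values was not tested.

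Pth1r, the receptor for parathyroid hormone, was at 611 to 848 CPM in db/m (median 758) and 516 to 1268 CPM in db/db (median 717). Of the db/db kidneys 2 lay above and 2 below the whole db/m range, so that group reached past the db/m range on both sides. The log2 fold change was 0.02 (95% interval -0.27 to 0.32; edgeR adjusted p = 0.947), and -0.14 without both replicate 8 libraries. The highest value was again that of db/db replicate 8, which was also the highest for Slc34a1 and the lowest for Slc17a1 and Kl within its group.

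**Figure D4:**
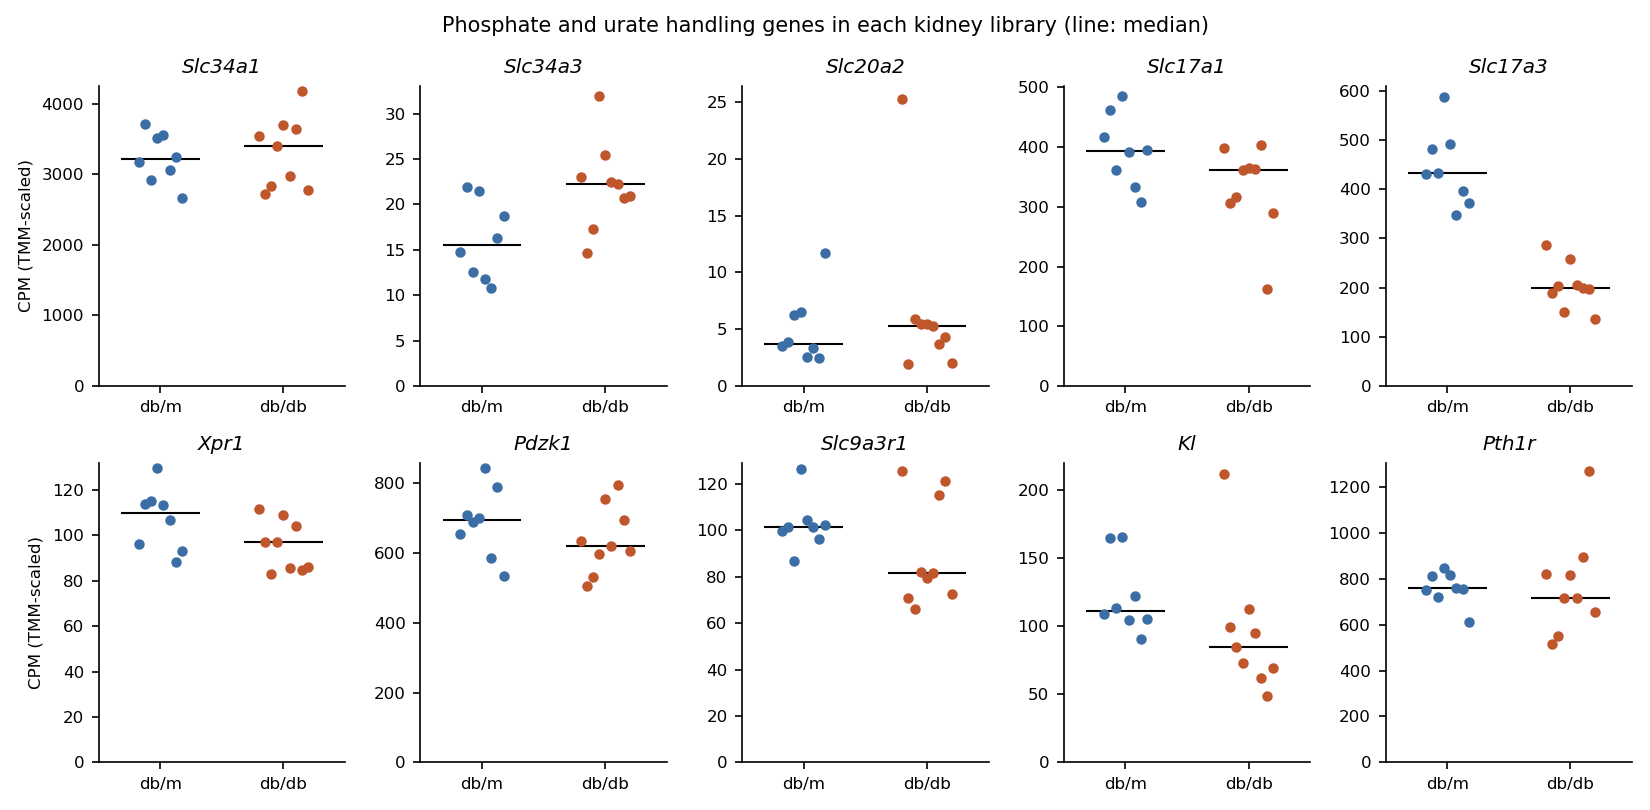
Level of each gene in CPM (vertical axis from 0, its own scale per gene), 1 point per library, with a line at each group's median, for 8 db/m (blue) and 9 db/db (orange) kidneys. Only for Slc17a3 do the groups not overlap; single high db/db libraries stand out for Slc20a2 (25.2 CPM), Kl (212 CPM) and Pth1r (1268 CPM).

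Around these genes, 49 further genes of phosphate handling were listed: other carriers, scaffolds, signalling of parathyroid hormone and FGF23, vitamin D enzymes, and enzymes of the inositol pyrophosphates that bind the SPX domain of Xpr1. Of these, 38 had enough counts to test, 2 rose and 0 fell (edgeR's test; unadjusted p was under 0.05 for 4 upward and 2 downward), with a median log2 fold change of 0.06. DESeq2 and limma-voom also called 2 higher and 0 lower. This share, 2 of 38, lies near the 7.39% of the whole table.

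Stc1 encodes stanniocalcin 1, a hormone that acts on phosphate and calcium transport in the kidney. It was at 8.09 to 22.9 CPM in db/m (median 15.5) and 23.8 to 58.7 CPM in db/db (median 42.4), without overlap. The log2 fold change was 1.47 (SE 0.22; edgeR adjusted p = 0.000117). Ip6k2 encodes an inositol hexakisphosphate kinase, which makes inositol pyrophosphates. It was at 25.0 to 36.6 CPM in db/m and 36.9 to 62.5 CPM in db/db, again without overlap, with a change of 0.69 (SE 0.12; edgeR adjusted p = 0.000840). Both calls held in all 17 fits that left out 1 library. Markers of the collecting duct, a site where Stc1 is known to be made, were higher in db/db. The summed collecting duct list was 401 to 1017 CPM in db/m and 816 to 1775 CPM in db/db, with 7 of 10 members higher. Distal tubule markers (5 of 7 higher) and podocyte markers (2 of 6 higher) also had higher sums, against 3.91% of all tested genes called higher. The part of these lists in the Stc1 rise was not tested.

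The 3 uncalled genes of this list with the highest counts were Pdzk1ip1, a membrane partner of Pdzk1, at 0.06 (SE 0.10), the cytoskeletal linker Ezr at 0.21 (SE 0.12) and the G protein subunit Gnas, which couples Pth1r to cyclic AMP, at -0.34 (SE 0.15; edgeR adjusted p = 0.199). Gnas was called lower in 1 of the 17 fits that left out a library, the one without db/db replicate 1. The FGF receptors that can pair with klotho, named after their values were seen, were at -0.24 for Fgfr1, -0.05 for Fgfr3 and -0.23 for Fgfr4, and none passed the test. Fgf23 and Pth, which are made in bone and the parathyroid, had 0 counts in all 17 libraries.

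Of 30 listed genes of urate transport and of purine breakdown to urate, 26 were tested, 2 rose and 2 fell, with a median of 0.08, beside 3.91% higher and 3.49% lower among all tested genes. Abcc4 encodes MRP4, an exporter of urate and other organic anions. Its level was 18.0 to 58.6 CPM in db/m (median 29.2) and 54.2 to 109 CPM in db/db (median 76.6), with all 9 db/db kidneys above the db/m median and a slight overlap. The change was 1.23 (SE 0.18; edgeR adjusted p = 0.000120). Slc22a7, the anion transporter OAT2, also listed as an S3 marker, was at 15.7 to 52.3 CPM in db/m and 0.670 to 6.21 CPM in db/db (-3.22, SE 0.32; edgeR adjusted p = 8.16e-07). Abcc4 and Slc22a7 were called in all 17 fits that left out 1 library.

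The other 2 calls were close to the threshold. Ppat, which starts purine synthesis, was at 20.1 to 25.9 CPM in db/m and 20.9 to 45.6 CPM in db/db (0.46, SE 0.14; edgeR adjusted p = 0.0453). It was called in 4 of 17 fits that left out 1 library. Nt5e, the ectoenzyme that turns AMP into adenosine, was at 8.34 to 22.2 CPM in db/m and 6.94 to 12.4 CPM in db/db (-0.70, SE 0.21; edgeR adjusted p = 0.0431). It was called in 6 of 17 such fits.

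Slc22a12, the urate reabsorber URAT1, was not called. It was at 106 to 580 CPM in db/m (median 391) and 132 to 325 CPM in db/db (median 179), and all 9 db/db kidneys lay below the db/m median. The difference of -0.80 (SE 0.25, 95% interval -1.31 to -0.28) narrowly missed edgeR's threshold (adjusted p = 0.0553, 0.0260 to 0.121 over the 10 other fits of all genes), and 4 of the 17 fits that left out 1 library called it lower. The basolateral anion exchangers Slc22a6 and Slc22a8, which can carry urate, stood at -0.10 (SE 0.15) and 0.23 (SE 0.13), and neither passed the test. Abcg2, another urate exporter, named after its value was seen, was at -0.07 (SE 0.10). Uricase, Uox, which degrades urate in mouse liver, had 3 counts in all.

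**Figure D5:**
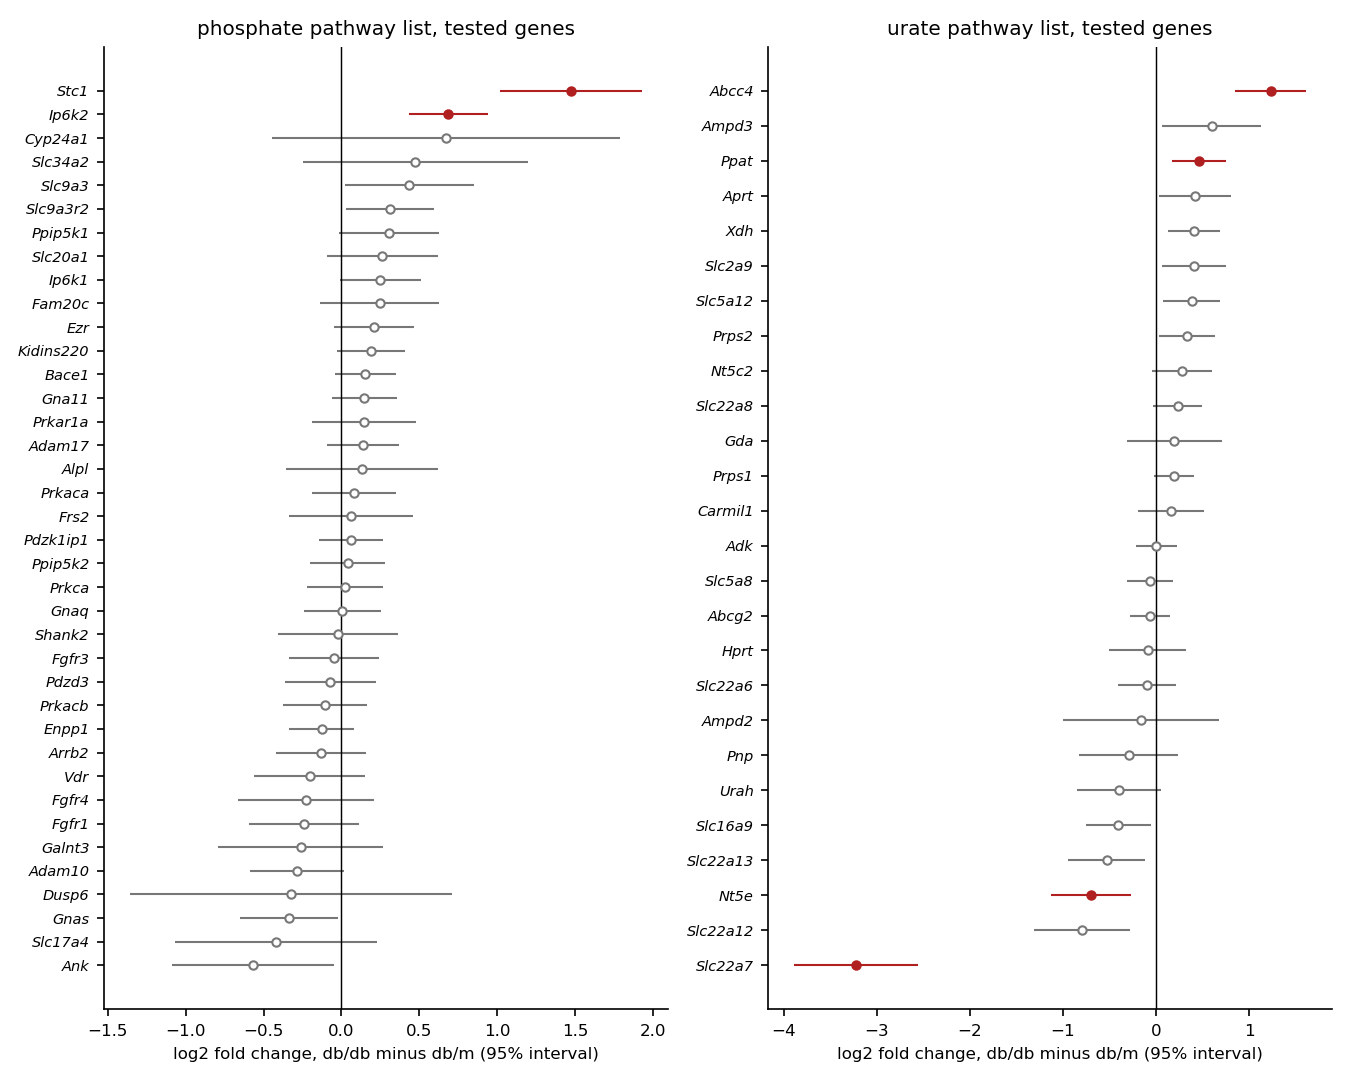
Log2 fold change (db/db minus db/m) with 95% interval for the tested genes of the phosphate list (left, 38 genes) and of the urate list (right, 26 genes); filled red marks an adjusted p under 0.05. Stc1 and Ip6k2 on the left, and Abcc4 and Ppat on the right, lie above 0, and Slc22a7 and Nt5e lie below it.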

How the data were processed

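The deposited table gives, per Ensembl gene, raw read counts for 17 kidney libraries prepared with QuantSeq 3′ FWD chemistry, per the labels' protocols. STAR 2.7.3a and HTSeq 2.16.2 were used by the authors, per the submitters' processing notes, which name GRCh38 although the identifiers are mouse. For the mouse build, the annotation, strand and duplicate reads, the settings were not given in the sources used here. The extraction protocol speaks of cultured cells, whereas every sample is labelled kidney. Reads outside genes made up 19.3% and ambiguous reads 0.533% of all counted reads, and both were left out.

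Counts were fitted as deposited with edgeR 4.0.16 in R 4.3.3 (filterByExpr with a minimum count of 10, TMM scaling, quasi-likelihood F-test, Benjamini-Hochberg adjustment over 12131 genes, threshold 0.05), a step tested on simulated data. The p-values set each group difference against the spread between animals within groups. They do not cover anything that follows library number, which cannot be told apart from the group. Single genes and ratios were also tested by exact permutation of the 17 libraries. Alternatives were DESeq2 1.42.0, limma-voom (limma 3.58.1), other scalings, no filter, the robust option, a replicate block and leaving out libraries. Same-numbered libraries did not deviate together, so no pairing was used.

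Named genes are all 10 members, every called gene and the 3 uncalled genes with the highest average level of each pathway list, and the 2 genes with profiles closest to a called member. Other genes given values (vitamin D enzymes, FGF receptors, Abcg2, Uox, Fgf23, Pth, the genes overlapping Slc20a2) were chosen after their values were seen. The members and lists were chosen with earlier results of these data known. Promoter sequences are from RefSeq (GRCm38.p6), which matched 9 of 10 members.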

Additional observations from a re-analysis of the deposited data

Results flagged for a closer look

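In 52 groups examined, each a gene or ratio in the libraries of 1 genotype, 9 had a highest or lowest library whose gap to the next was too large a share of the group's range by Dixon's 95% criterion. For normally distributed values the criterion flags about 5% of groups by chance. The groups here were CPM values or ratios from the same 17 libraries, so that share is only a rough guide. Slc20a2 was far above the rest in db/m replicate 8 (11.7 CPM) and in db/db replicate 1 (25.2 CPM). Kl was far above the rest in db/db replicate 1 (212 CPM), as was Gnas (438 CPM). In db/db replicate 8, Slc17a1 was far below the other db/db libraries (162 CPM), Pth1r far above them (1268 CPM), and the ratio of Slc17a3 to Slc17a1 far above them (1.22). Slc9a3r1 was far above the other db/m libraries in db/m replicate 4 (126 CPM). Pdzk1ip1 was far below them in db/m replicate 8 (476 CPM).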

How the results depend on the processing

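Slc17a3 stayed the 1 member called lower, with 0 called higher, under the 10 other fits of all genes. Leaving out 1 library at a time gave 1 to 2 members lower (Kl the other, without db/db replicate 1) and 0 to 0 higher, 2 to 3 phosphate genes higher and 0 to 1 lower, 1 to 2 urate genes higher and 1 to 4 lower, and 319 to 666 higher and 318 to 571 lower among all genes. The 4 urate genes lower came when db/m replicate 5 was left out, and again when db/db replicate 1 was, and counts of 1 followed Ppat and Nt5e crossing the threshold. Urate genes called higher numbered 1 with limma-voom, proximal tubule scaling, no filter and the replicate block. Urate genes called lower numbered 1 with limma-voom, no scaling, the block and without both replicate 8 libraries, where 1 phosphate gene was called lower. Over all genes 227 were higher with proximal tubule scaling, and the block gave 200 higher and 235 lower. Same-numbered libraries correlated at -0.45 to 0.21 in their deviations from group means, so the block is no pairing, and it changed no member's call. Signs turned for Pth1r (-0.018 with limma-voom and -0.018 by permutation, -0.045 with proximal tubule scaling, -0.14 without both replicate 8 libraries) and for Slc34a1 (-0.018 and -0.053 under the last 2). With 1 library left out Slc34a1 ranged from -0.016 to 0.071, Pth1r from -0.10 to 0.088 and Slc20a2 from -0.23 to 0.70. Some of these turns came with all 17 libraries, and their cause was not tested. Slc20a2, with 7 to 113 counts per library, also moved to 0.10 with limma-voom. Pdzk1 ranged from -0.15 to -0.05 with 1 library left out.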
